A study of Mus musculus with 24 samples.

Results

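The genes of heterotrimeric G proteins and of the cAMP pathway behind them were followed in bone marrow-derived macrophages that lacked or carried GPR35, a receptor known to signal through Gi-type G proteins. The set was every gene of the deposited count table whose symbol belongs to 8 families, 55 of 11590 genes in all. It held 9 G alpha, 4 G beta and 7 G gamma subunits, 11 regulators of G protein signalling (RGS), 4 adenylyl cyclases, 13 phosphodiesterases, 5 G protein-coupled receptor kinases (GRK) and 2 arrestins. RefSeq (GRCm38.p6) annotates 92 protein-coding genes in these families, and the other 37 were not analysed here. The macrophages came from male C57BL/6 mice, GPR35-deficient (KO) or wild type (WT), and all were grown from bone marrow with M-CSF. On day 7 they received lysophosphatidic acid (LPA, 10 µM, a lipid that signals through G protein-coupled receptors) or lipopolysaccharide (LPS, 10 ng/mL, a bacterial agonist of Toll-like receptor 4) for 4 h, or stayed untreated (Cont). The series asks what LPA changes in gene expression when GPR35 is present or absent. The 6 groups were KO with LPA, KO with LPS, KO untreated, WT with LPA, WT with LPS and WT untreated, each with 4 replicates. The sources used here do not give the age of the mice, how the deletion was made, or whether the replicates of a group came from separate mice, so p-values measure the spread between these samples.

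In this pathway an activated receptor loads GTP onto a G alpha subunit, which parts from its G beta and G gamma partners. Subunits of the Gs type stimulate and those of the Gi type inhibit adenylyl cyclase, which makes cAMP, while the Gq type acts on phospholipase C beta. RGS proteins speed the return of G alpha to its inactive state, phosphodiesterases break cyclic nucleotides down, and GRKs and arrestins silence the receptor itself. In macrophages a rise in cAMP is known to restrain the release of inflammatory cytokines such as TNF.

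Library totals were 15167683 to 21461866 counts in KO and 31985119 to 46697165 in WT. Per the labels the WT libraries ran on 2 lanes and the KO libraries on 1, so that depth and lanes cannot be told apart from genotype. Gpr35 had 0 to 5 counts per library in KO, against 8 to 133 in WT. The WT libraries held 107 to 133 counts untreated, 54 to 122 with LPA and 8 to 17 with LPS. Scaled for depth, the WT means were 2.60 ± 0.214, 2.07 ± 0.697 and 0.417 ± 0.150 CPM. In KO they were 0.133 ± 0.0710, 0.110 ± 0.0844 and 0 CPM. LPS thus lowered Gpr35 in WT, by a log2 fold change of -2.63 ± 0.29 (edgeR adjusted p = 5.1e-08). All 10 macrophage markers were measured. Their summed level was 44396 to 48009 CPM in KO and 45106 to 46434 CPM in WT with LPS. In untreated cells it was 34280 to 36152 CPM in KO and 35018 to 37321 CPM in WT. With LPA it was 31499.7 to 34738 CPM in KO and 32666 to 38955 CPM in WT. Of 7 stromal and endothelial markers 6 were measured, and their summed level was 19.1 to 33.9 CPM with LPA and 123 to 165 CPM with LPS in KO, against 13.9 to 25.7 CPM in untreated KO cells. In WT it was 35.8 to 42.6 CPM with LPA and 170 to 208 CPM with LPS, against 21.0 to 27.3 CPM untreated. The 5 of 7 osteoclast markers measured summed to 119 to 305 CPM with LPA and 47.1 to 79.6 CPM with LPS in KO, against 119 to 284 CPM untreated. In WT they summed to 94.95 to 189 CPM with LPA and 47.1 to 82.5 CPM with LPS, against 155 to 238 CPM untreated. For 2 of 6 erythroid and megakaryocyte markers the sums were 90.8 to 109 CPM with LPA and 186 to 214 CPM with LPS in KO, against 83.1 to 101 CPM untreated. The WT sums were 118 to 188 CPM with LPA and 159 to 186 CPM with LPS, against 74.7 to 93.7 CPM untreated. The 1 measured of 5 mast cell and basophil markers stood at 29.96 to 37.04 CPM in KO and 44.01 to 49.5 CPM in WT with LPS, against 1.47 to 2.67 CPM in untreated KO and 1.403 to 2.49 CPM in untreated WT. With LPA it stood at 0.905 to 1.57 CPM in KO and 2.62 to 4.15 CPM in WT. The 1 measured of 7 lymphoid markers stood at 26.6 to 42.5 CPM in KO and 29.2 to 37.6 CPM in WT with LPS, against 62.7 to 88.9 CPM in untreated KO and 75.5 to 92.5 CPM in untreated WT. With LPA it stood at 59.8 to 96.6 CPM in KO and 57.2 to 68.9 CPM in WT. Of 12 neutrophil markers 11 were measured. In KO they summed to 339 to 586 CPM with LPA and 415 to 739.6 CPM with LPS, against 402 to 714 CPM untreated. In WT they summed to 364 to 420 CPM with LPA and 500 to 708 CPM with LPS, against 422 to 638 CPM untreated. Of 6 dendritic cell markers 1 was measured. In KO it stood at 1.56 to 2.53 CPM with LPA and 1.04 to 1.49 CPM with LPS, against 1.80 to 4.06 CPM untreated. In WT it stood at 0.569 to 1.39 CPM with LPA and 1.69 to 2.26 CPM with LPS, against 2.07 to 3.74 CPM untreated. The single marker measured was Hdc for mast cells and basophils, Cd4 for lymphoid cells and Kmo for dendritic cells. The 2 erythroid and megakaryocyte markers were Pf4 and Ppbp. The other markers of these lists were not measured. The sums hide markers that moved apart. With LPS, 6 of the 10 macrophage markers were called up and 4 down in each genotype. Of the 11 neutrophil markers 2 were up and 6 down, of the 6 stromal and endothelial 3 and 1. Of the 5 osteoclast markers 1 was up and 3 down, again in each genotype. Of all genes 82.3% were called in KO and 84.2% in WT with LPS. The part of these shifts in the results was not tested. In these bulk samples, more or fewer cells of a type and more or less RNA per cell cannot be told apart. CPM values were scaled by TMM, RPKM values are CPM divided by the deposited gene length in kilobases, and a gene was called where its p, adjusted over all genes by Benjamini-Hochberg, was below 0.05. Log2 changes carry standard errors, computed as the absolute log2 change divided by the square root of edgeR's F statistic. Means carry their SD over 4 libraries. Treated values are set against untreated values of the same genotype, and single libraries are named by group and replicate number.

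Untreated macrophages held one dominant gene in most families. Per length, the highest member in untreated WT cells was Gnai2, which encodes a Gi subunit, at 363 ± 4.89 RPKM, and it made up 55.5 ± 0.437% of the summed G alpha level. Rgs10 followed at 205 ± 8.14 RPKM and Gnb2 at 192 ± 4.73 RPKM, with overlapping library values. Arrb2 (127 ± 4.91 RPKM) and Gnb1 (112 ± 4.64 RPKM) came next without overlap, ahead of Grk2, Gna12 and Gng5 at 94.1 ± 2.599, 92.03 ± 2.61 and 88.98 ± 5.93 RPKM, which did not differ beyond their spread. Among the cyclases Adcy7 held 83.4 ± 0.561% of the summed RPKM, among the RGS genes Rgs10 held 58.9 ± 1.87%, and among the GRKs Grk2 held 76.6 ± 0.785%. The phosphodiesterases were spread more evenly, with Pde1b at 23.4 ± 3.01%, Pde4b at 12.8 ± 1.22% and Pde3b at 12.5 ± 1.699% of their sum. At the low end stood Rgs9 (0.0145 ± 0.00898 RPKM), Pde10a (0.0261 ± 0.00833 RPKM) and Rgs16 (0.162 ± 0.0548 RPKM). Of the 55 members, 10 fell under 10 counts in some library.

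Promoter sequences are shown for 6 members that changed with LPS or LPA and whose RefSeq promoter (GRCm38.p6) lies wholly before the annotated gene and is the only one listed. That table held 71 promoters for 40 of the 55 members, and 15 members met both conditions. Each line gives the 250 bases before the start, 5′ to 3′ on the gene's strand, with motif matches in capitals.
Gnai3: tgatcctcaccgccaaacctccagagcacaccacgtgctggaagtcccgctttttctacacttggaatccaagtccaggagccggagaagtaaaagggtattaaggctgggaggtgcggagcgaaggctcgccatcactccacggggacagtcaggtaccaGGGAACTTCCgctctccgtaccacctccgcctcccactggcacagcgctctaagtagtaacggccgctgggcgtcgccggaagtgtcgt
Rgs16: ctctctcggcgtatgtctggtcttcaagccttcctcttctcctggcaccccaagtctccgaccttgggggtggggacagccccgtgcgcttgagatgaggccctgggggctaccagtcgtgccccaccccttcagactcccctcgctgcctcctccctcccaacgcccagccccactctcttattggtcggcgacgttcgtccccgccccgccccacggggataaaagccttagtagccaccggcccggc
Gna12: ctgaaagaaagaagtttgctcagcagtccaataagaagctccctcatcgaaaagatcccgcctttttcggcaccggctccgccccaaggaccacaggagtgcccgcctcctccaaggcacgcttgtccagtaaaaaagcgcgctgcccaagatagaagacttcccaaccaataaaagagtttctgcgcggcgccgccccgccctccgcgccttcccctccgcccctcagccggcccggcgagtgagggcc
Gnb5: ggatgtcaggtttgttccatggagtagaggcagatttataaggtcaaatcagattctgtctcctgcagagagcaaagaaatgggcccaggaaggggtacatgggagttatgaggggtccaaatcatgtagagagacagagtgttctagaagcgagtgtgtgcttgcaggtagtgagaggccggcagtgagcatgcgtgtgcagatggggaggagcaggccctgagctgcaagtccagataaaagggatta
Rgs2: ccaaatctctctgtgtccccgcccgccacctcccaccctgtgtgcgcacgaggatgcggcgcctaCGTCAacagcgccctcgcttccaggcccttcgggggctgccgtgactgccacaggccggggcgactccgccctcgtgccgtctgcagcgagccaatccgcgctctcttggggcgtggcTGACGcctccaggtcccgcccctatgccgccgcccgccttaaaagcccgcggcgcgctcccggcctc
Pde8a: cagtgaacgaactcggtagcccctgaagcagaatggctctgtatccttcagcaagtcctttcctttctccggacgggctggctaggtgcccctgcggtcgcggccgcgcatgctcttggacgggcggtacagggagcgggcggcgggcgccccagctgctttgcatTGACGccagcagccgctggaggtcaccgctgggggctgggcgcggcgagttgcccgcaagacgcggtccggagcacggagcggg

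The windows lie at chr3:108146153-108146402, minus strand, for Gnai3, chr1:153740103-153740352, plus strand, for Rgs16, chr5:140830432-140830681, minus strand, for Gna12, chr9:75306038-75306287, plus strand, for Gnb5, chr1:144004150-144004399, minus strand, for Rgs2, and chr7:81213015-81213264, plus strand, for Pde8a. Capitals mark a match to the kappa-B consensus (the motif of NF-kB) in Gnai3, with its first base at -89 from the start, and matches to TGACG, part of the cAMP response element, in Rgs2 at -185 on the other strand and at -67, and in Pde8a at -84. Both strands were searched, also for the whole cAMP response element TGACGTCA, which contains TGACG and had no match in any of the 71 member promoters, against 2.62% of 11693 promoters of all table genes. The kappa-B consensus stood in 14.1% of the member promoters (10 of 71, in 8 genes), against 8.93% of the promoters of all table genes, and TGACG in 19.7%, against 27.1%. Adcy7, Gnai3, Gnb1, Gng4, Gng7, Grk6, Pde1b and Pde4b held a kappa-B match. A match in any listed promoter counted. Gnai3 and Gnb1 have 1 listed promoter, Gng4 and Gng7 have 2, Adcy7, Grk6 and Pde1b have 3 and Pde4b has 4. Which start these macrophages used was not tested. With LPS, Gnai3, Gnb1, Pde1b and Pde4b rose in both genotypes, and Adcy7, Gng7 and Grk6 fell in both. The rise of Gng4 was called in WT and not in KO, and its LPS effects were not called as different between genotypes. The windows of Rgs16, Gna12 and Gnb5 held no match, and a match is a description of letters only.

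Without treatment, no member was called as different between KO and WT macrophages. Of the 55 genes 0 were called by edgeR, where 0.00863% of all genes were, and DESeq2 also called 0. At an unadjusted p below 0.05 there was 1 member, Gna15, at 10.9, 10.7, 10.1 and 10.7 CPM in untreated KO and 15.7, 13.9, 11.6 and 14.7 CPM in untreated WT cells, a log2 difference of -0.40 ± 0.14 (edgeR adjusted p = 1.0). It was also the only member whose 4 KO values all lay below the 4 WT values; for the other 54 the ranges overlapped, as they did for all but 2.34% of all genes. The median log2 difference of the members was -0.01, against 0.00 for all genes.

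In KO macrophages LPA changed 4 of the 55 members (7.27%, against 2.62% of all genes, 1.56% upwards and 1.06% downwards): Gng4, Pde8a and Adcy7 rose and Rgs18 fell. The median absolute log2 change over all 55 members was 0.14 in KO, against 0.24 in WT, where over all genes it was 0.08 in KO and 0.19 in WT. With the replicate number as a block, which pairs the KO libraries, 8 members and 4.78% of all genes were called, and the 4 added were Pde3b (0.81 ± 0.12), Pde4d (0.62 ± 0.12), Arrb2 (0.19 ± 0.05) and Gng12 (-0.19 ± 0.05). DESeq2 also called 8, and 3.98% of all genes.

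LPA changed 25 of the 55 members in WT macrophages, 11 upwards and 14 downwards (45.5%, against 44.6% of all genes, 23.5% upwards and 21.1% downwards), so the share called was near that of the table. In WT cells the G gamma gene Gng4, Rgs16, Pde10a, Pde4b, the G alpha gene Gna15, Gng12, Gnb1, Rgs3, Gng5, Pde8a and Gnai3 rose. Adcy3, Rgs10, Gng2, Pde3b, Gng7, Pde4d, Gnb5, Grk4, Adcy9, Gna12, Rgs18, Pde7a, Grk6 and Gnas fell. Only Gng4 and Rgs16 passed a 2-fold change, as did 2.8% of all genes, and 20 members, with 34.9% of all genes, had ranges that did not overlap between LPA and untreated WT libraries. Same-numbered WT libraries with LPA and untreated deviated together (r of 0.211 to 0.626 across genes in the 4 pairs), and with the replicate number as a block 33 members were called, 14 up and 19 down, beside 53.1% of all genes. The 8 added were Rgs11 (0.43 ± 0.14), Grk3 (0.24 ± 0.08) and Arrb2 (0.13 ± 0.05) upwards and Adcy6 (-0.63 ± 0.26), Rgs2 (-0.36 ± 0.14), Pde2a (-0.16 ± 0.07), Adcy7 (-0.15 ± 0.05) and Gng10 (-0.13 ± 0.05) downwards. Scaled by library totals alone, the split was 8 up and 16 down, and no called member changed direction.

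The LPA effect itself differed between the genotypes for 18 members (32.7%, against 28.5% of all genes). That effect was higher in KO for 12 members and lower for 6, as for 12.7% and 15.8% of all genes. Higher in KO were the effects on Adcy3, Adcy7, Adcy9, Pde3b, Pde4d, Pde7a, Pde2a, Gng2, Gng7, Gnb5, Gna12 and Rgs10. Lower in KO were those on Gng12, Pde4b, Gnb1, Rgs3, Gng5 and Pde6d. With LPA present, 31 members differed between KO and WT (56.4%, against 50.3% of all genes). In KO 19 were higher and 12 lower, as were 24.4% and 25.9% of all genes, and all 4 cyclases were among the 19. The KO and WT values did not overlap for 21 of the 55, higher in KO for 13 and lower for 8, where 36.4% of all genes did not overlap, 17.7% higher and 18.7% lower in KO. Both comparisons use the same LPA libraries. Scaled by library totals alone the splits were 14 and 4 for the effect and 23 and 9 for KO against WT, where the median of all genes moved by 0.10, with no direction turned. Without WT LPA 3, 28 members and 40% of all genes were called for the difference in effect, and without WT LPA 2, 14 members and 19.5% of all genes. The replicate block gave 25 members and 37.3% of all genes, and the 7 added were Grk4 (0.89 ± 0.31), Gnal (0.75 ± 0.23) and Rgs2 (0.55 ± 0.20), higher in KO, and Rgs16 (-1.53 ± 0.45), Grk3 (-0.34 ± 0.11), Gnai3 (-0.17 ± 0.06) and Rgs19 (-0.15 ± 0.06), lower in KO.

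**Figure D1:**
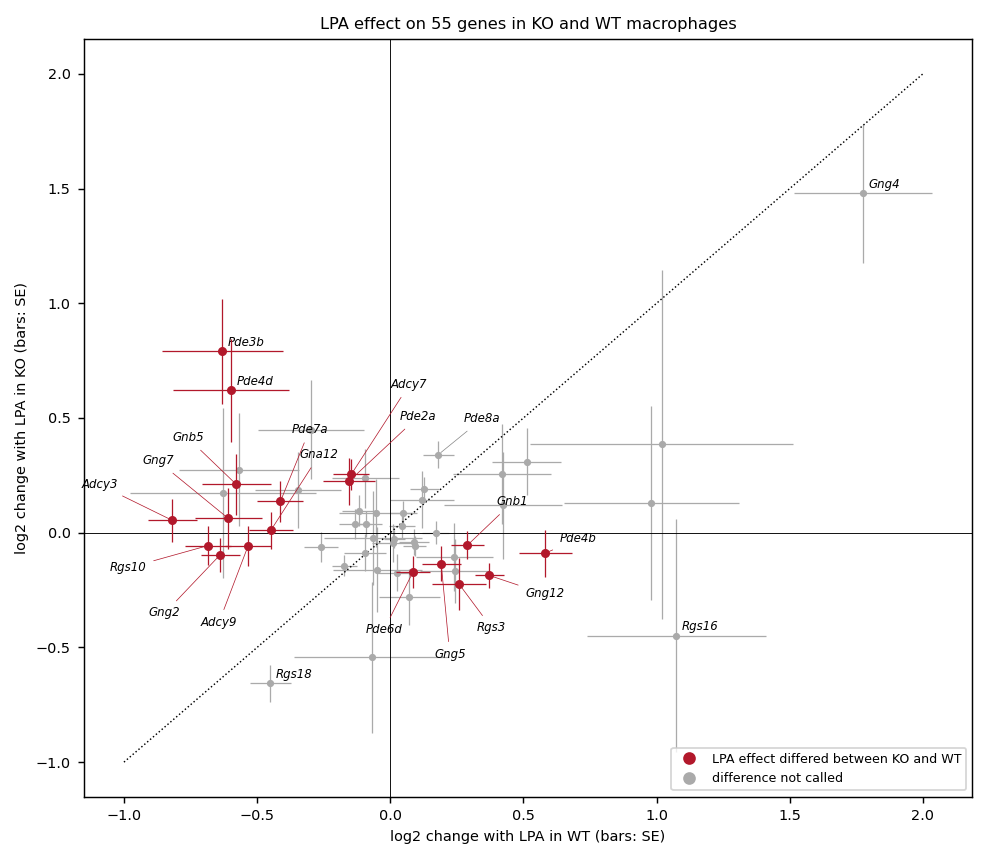
Log2 change with LPA against untreated cells for the 55 genes, in KO (vertical axis) and WT macrophages (horizontal axis), with bars of 1 standard error and the line of equal change dotted. Red marks the 18 genes whose effect differed between genotypes; Adcy3 lies at 0.05 in KO and -0.82 in WT, while Gng4 (1.48 in KO and 1.78 in WT) lies near the dotted line.

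LPS changed most of the members in both genotypes. In KO macrophages 44 were called (80%, against 82.3% of all genes), 21 up and 23 down, where 39.3% of all genes rose and 43% fell. In WT macrophages 45 were called (81.8%, against 84.2% of all genes), 23 up and 22 down, where 40.6% of all genes rose and 43.6% fell. The largest rises were those of Rgs16, Rgs9, Pde4b, Gnb4 and Gng12 and, in WT, Pde10a, and the largest falls those of Pde3b, Pde4d, Adcy3, Gnb5 and Gng7. With TMM scaling, Gnai2 and Gnaq were not called with LPS. Gnai2 was at 828 ± 5.55 CPM in KO and 828 ± 10.4 CPM in WT cells with LPS. Its log2 changes were 0.08 ± 0.04 in KO and 0.07 ± 0.04 in WT. Those of Gnaq, which encodes a Gq subunit, were 0.09 ± 0.05 in KO and -0.03 ± 0.05 in WT. Scaled by library totals alone, the median of all genes moved by -0.50 in KO and -0.56 in WT. The members then split into 14 up and 35 down in KO and 13 up and 36 down in WT. Of these 49 called members in each genotype, 41 in KO and 40 in WT were also called with TMM scaling. The rest were called with library totals but not with TMM. Under that scaling the rises of Grk2, Arrb2 and Rgs19 became falls in both genotypes, as did those of Gnas and Pde6d in WT and Grk5 in KO, while Gna13, Pde1b and Pde4a in KO turned below 0 without a call.

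**Figure D2:**
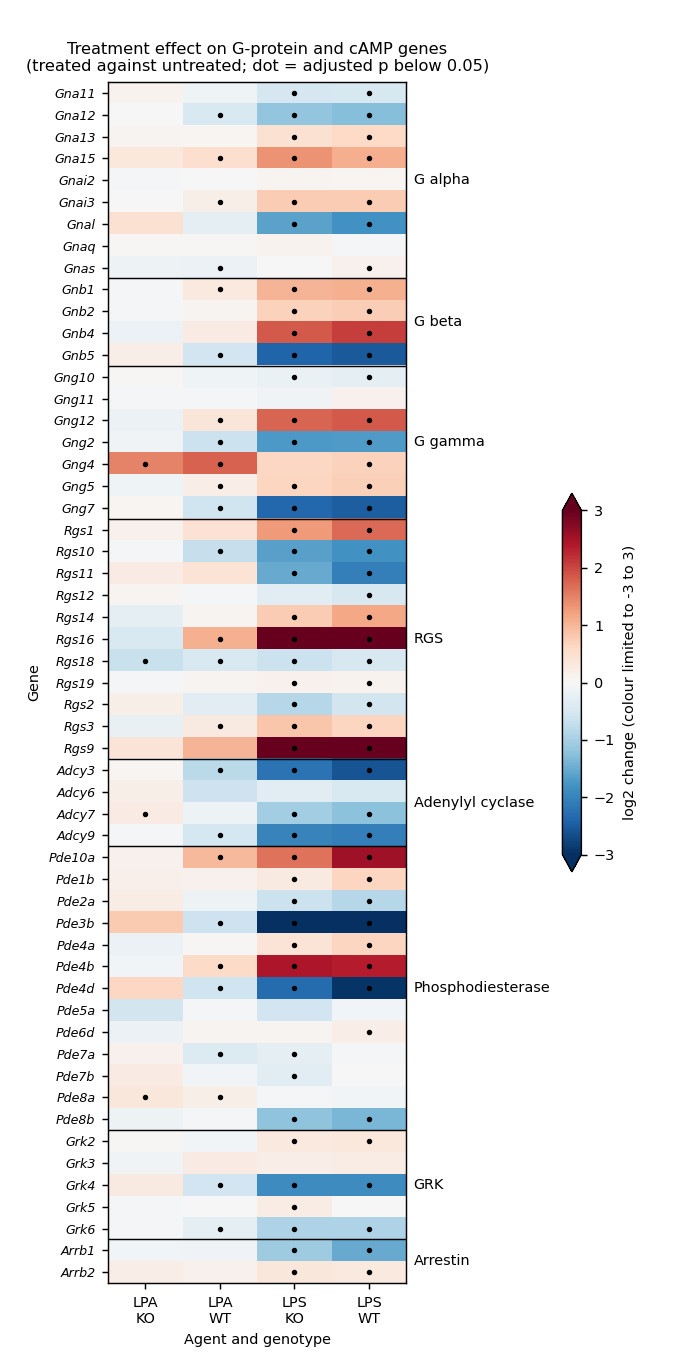
Log2 change of each of the 55 genes (vertical axis, by family) with LPA or LPS against untreated cells of the same genotype, with colour limited to -3 to 3 and a dot where the edgeR adjusted p was below 0.05. The LPS columns hold 44 dots in KO and 45 in WT, and the LPA columns 4 in KO and 25 in WT.

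The LPS effect was not called as different between genotypes for any member by edgeR or DESeq2 (0 of 55, as for 0% of all genes by edgeR and 17 genes by DESeq2), with 5 members at an unadjusted p below 0.05. Between KO and WT macrophages with LPS, 1 member was called, Arrb1, which was higher in KO (1.82%, against 2.85% of all genes, 0.69% higher and 2.16% lower). In WT cells 43 members differed between LPA and LPS (78.2%, against 78.9% of all genes), 22 higher and 21 lower with LPA, as were 41.1% and 37.8% of all genes. Scaled by library totals the split was 33 and 10, where the median of all genes moved by 0.50 and Gnas, Arrb2, Grk2, Pde7a and Rgs3 turned direction. The largest of these were Pde3b, higher with LPA by a log2 difference of 3.39 ± 0.28 (edgeR adjusted p = 7.2e-10), and Rgs16, lower by a log2 difference of -3.33 ± 0.28 (edgeR adjusted p = 1.6e-10). Within a genotype, the LPA and LPS effects share the untreated libraries. In WT cells Gpr35 itself stood at 0.417 ± 0.150 CPM with LPS, against 2.60 ± 0.214 CPM untreated.

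Among the G alpha genes, Gna12 (Entrez 14673, chromosome 5, 140759944 to 140830431, mm10) encodes a subunit of the G12/13 type. Gna12 was at 171, 169, 165 and 173 CPM in KO cells with LPA and at 69.3, 71.2, 76.7 and 76.8 CPM with LPS, against 183, 156, 169 and 164 CPM in untreated KO cells. In WT cells Gna12 was at 116, 109, 138 and 144 CPM with LPA and at 83.9, 70.9, 60.9 and 68.1 CPM with LPS, against 167, 172, 176 and 178 CPM untreated. LPS values lay below all untreated values in both genotypes, and LPA values did so in WT but not in KO. LPS lowered Gna12, by a log2 fold change of -1.19 ± 0.08 (edgeR adjusted p = 7.7e-12) in KO and -1.29 ± 0.08 (adjusted p = 1.1e-12) in WT. For Gna12, LPA gave a log2 change of 0.01 ± 0.08 (edgeR adjusted p = 0.98) in KO, where it was not called, and a fall of -0.45 ± 0.08 (adjusted p = 0.00018) in WT. For Gna12 the effects differed by a log2 value of 0.46 ± 0.12 (edgeR adjusted p = 0.0059). With LPA its level was higher in KO than in WT by a log2 difference of 0.42 ± 0.08 (edgeR adjusted p = 0.00026).

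Gna15, which encodes a Gq-type subunit of blood cells, moved the other way. Gna15 was at 14.02, 13.3, 12.2 and 13.03 CPM in KO cells with LPA and at 23.1, 36.1, 21.9 and 26.8 CPM with LPS, against 10.9, 10.7, 10.1 and 10.7 CPM in untreated KO cells. In WT cells Gna15 was at 23.5, 20.05, 17.4 and 18.7 CPM with LPA and at 25.3, 25.5, 32.8 and 34.7 CPM with LPS, against 15.7, 13.9, 11.6 and 14.7 CPM untreated. LPA and LPS values lay above all untreated values in both genotypes, and the KO values with LPA lay below all WT values with LPA. It rose with LPS by a log2 fold change of 1.35 ± 0.14 (edgeR adjusted p = 1.0e-08) in KO and 1.08 ± 0.13 (adjusted p = 7.3e-08) in WT and with LPA by a log2 fold change of 0.51 ± 0.13 (adjusted p = 0.0033) in WT. Gna15 was lower in KO with LPA by a log2 difference of -0.60 ± 0.14 (edgeR adjusted p = 0.0010). In untreated cells that log2 difference was -0.40 and was not called. The change of Gna15 with LPA in KO was not called. Its LPA effects were not called as different between genotypes, at a log2 difference of -0.20. The Gi gene Gnai3 rose with LPS in both genotypes. Its log2 fold change was 0.76 ± 0.05 (edgeR adjusted p = 3.2e-12) in KO and 0.76 ± 0.05 (adjusted p = 1.9e-12) in WT. Gnai3 was at 141, 152, 148 and 139 CPM in KO cells with LPA and at 260.5, 245, 254 and 223 CPM with LPS, against 148, 146, 143 and 143 CPM in untreated KO cells. In WT cells Gnai3 was at 167, 172, 153 and 152 CPM with LPA and at 241, 255, 248 and 228 CPM with LPS, against 146, 143, 141 and 142 CPM untreated. LPS values exceeded all untreated values. The WT rise with LPA was small, at a log2 fold change of 0.17 ± 0.05 (edgeR adjusted p = 0.0093), and its level with LPA was lower in KO by a log2 difference of -0.15 ± 0.05. That call for Gnai3 was lost without KO LPA 1 or 4, or WT LPA 1 or 2 (log2 -0.18 to -0.12 with 1 library left out, adjusted p up to 0.080).

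Gnal encodes G olf, a stimulator of adenylyl cyclase best known from olfactory neurons, and was low throughout. Gnal was at 2.48, 2.09, 2.58 and 1.81 CPM in KO cells with LPA and at 0.488, 0.919, 0.347 and 0.392 CPM with LPS, against 1.56, 1.85, 1.56 and 1.599 CPM in untreated KO cells. In WT cells Gnal was at 1.21, 0.981, 1.81 and 1.32 CPM with LPA and at 0.561, 0.444, 0.523 and 0.317 CPM with LPS, against 1.55, 1.26, 2.05 and 1.68 CPM untreated. All LPS values lay below all untreated values, with log2 changes of -1.60 ± 0.28 (edgeR adjusted p = 2.0e-05) in KO and -1.81 ± 0.24 (adjusted p = 2.8e-07) in WT. With LPA it was higher in KO than in WT by a log2 difference of 0.76 ± 0.21 (edgeR adjusted p = 0.0046), although the ranges overlapped. Gnas, which encodes Gs alpha, changed little. Gnas was at 509, 527, 486 and 514 CPM in KO cells with LPA and at 570.5, 573, 556 and 585 CPM with LPS, against 554, 585, 537 and 574 CPM in untreated KO cells. In WT cells Gnas was at 524, 505, 503 and 493 CPM with LPA and at 593, 624, 661 and 609.8 CPM with LPS, against 583, 587, 579 and 535 CPM untreated. With LPA its values lay below all untreated values in both genotypes, by a log2 fold change of -0.14 ± 0.05 (edgeR adjusted p = 0.12) in KO, where it was not called, and -0.17 ± 0.05 (adjusted p = 0.0048) in WT, where it fell. Its log2 change with LPS in WT was 0.12 ± 0.05 (edgeR adjusted p = 0.018). That call for Gnas was lost without WT Cont 4, or WT LPS 3 (log2 0.09 to 0.15 with 1 library left out, adjusted p up to 0.081) and turned direction with library totals.

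Of the other 4 G alpha genes, Gna13 (partner of Gna12 in the G12/13 type) rose with LPS by a log2 fold change of 0.46 ± 0.05 in KO and 0.59 ± 0.05 in WT, though in KO it turned to -0.04 with library totals. Gna11 (Gq type) fell by a log2 fold change of -0.50 ± 0.07 in KO and -0.48 ± 0.07 in WT. Gna11 ranged over 6.93 to 11.8 CPM in the 24 libraries, Gna13 over 239 to 410.1 CPM, Gnaq over 172 to 219 CPM and Gnai2 over 743 to 841 CPM. Summed per length, G alpha RNA was 636 ± 14.1 RPKM in KO with LPA, 671 ± 8.37 in KO with LPS and 644 ± 6.22 in untreated KO, and 635 ± 11.05, 680.3 ± 8.895 and 653 ± 3.94 RPKM in WT with LPA, WT with LPS and untreated WT.

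The G beta genes Gnb1, Gnb2 and Gnb4, whose products pair with G gamma subunits, all rose with LPS, and Gnb5 fell. Gnb1 (Entrez 14688, chromosome 4, 155491300 to 155559269) is described first. Gnb1 was at 331, 354, 321 and 343 CPM in KO cells with LPA and at 760.0, 715, 707 and 674 CPM with LPS, against 343, 372, 342 and 345 CPM in untreated KO cells. In WT cells Gnb1 was at 457, 472, 375 and 419 CPM with LPA and at 762, 759, 737 and 715 CPM with LPS, against 373, 353, 341 and 343 CPM untreated. Its LPS values were above all untreated values, and with LPA the WT values lay above all untreated WT values and above all KO values with LPA. LPS raised Gnb1 by a log2 fold change of 1.03 ± 0.06 (edgeR adjusted p = 3.6e-13) in KO and 1.08 ± 0.06 (adjusted p = 1.1e-13) in WT. Its log2 change with LPA was -0.05 ± 0.06 (edgeR adjusted p = 0.81) in KO and 0.29 ± 0.06 (adjusted p = 0.00065) in WT, a log2 difference of -0.34 ± 0.09 (adjusted p = 0.0056). Gnb1 was lower in KO cells with LPA by a log2 difference of -0.35 ± 0.06 (edgeR adjusted p = 6.9e-05).

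Gnb4 showed the largest rise among the G beta genes. Gnb4 was at 30.6, 24.995, 21.6 and 23.2 CPM in KO cells with LPA and at 111, 113, 92.6 and 86.01 CPM with LPS, against 26.3, 30.02, 25.8 and 30.5 CPM in untreated KO cells. In WT cells Gnb4 was at 41.3, 36.6, 28.1 and 32.95 CPM with LPA and at 99.6, 122, 140.1 and 130.4 CPM with LPS, against 33.3, 31.9, 25.4 and 26.9 CPM untreated. All LPS values exceeded all untreated values, with log2 changes of 1.84 ± 0.14 (edgeR adjusted p = 3.0e-11) in KO and 2.06 ± 0.13 (adjusted p = 1.9e-12) in WT. With LPA it was lower in KO than in WT by a log2 difference of -0.47 ± 0.13 (edgeR adjusted p = 0.0063), with overlapping ranges. Gnb5 encodes a divergent G beta that binds RGS proteins of the R7 group, such as those of Rgs9 and Rgs11. Gnb5 was at 6.24, 5.82, 8.13 and 6.56 CPM in KO cells with LPA and at 1.12, 0.989, 1.18 and 1.099 CPM with LPS, against 5.75, 6.08, 5.21 and 6.11 CPM in untreated KO cells. In WT cells Gnb5 was at 3.74, 2.89, 4.65 and 4.73 CPM with LPA and at 1.296, 0.814, 1.01 and 1.02 CPM with LPS, against 6.13, 5.86, 5.76 and 6.11 CPM untreated. Its LPS values lay below all untreated values, at log2 changes of -2.40 ± 0.17 (edgeR adjusted p = 1.1e-11) in KO and -2.52 ± 0.15 (adjusted p = 3.3e-13) in WT. For Gnb5, LPA gave a log2 change of 0.21 ± 0.13 (edgeR adjusted p = 0.59) in KO, where it was not called, and a fall of -0.58 ± 0.13 (adjusted p = 0.0011) in WT. The 4 KO values with LPA were above the 4 WT values with effects that differed by a log2 value of 0.79 ± 0.19 (edgeR adjusted p = 0.0039). Gnb2, at 273 to 525 CPM over all libraries, rose with LPS by a log2 fold change of 0.70 ± 0.06 in KO and 0.75 ± 0.06 in WT.

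Summed over the family, G beta RNA per length was 561 ± 25.6 RPKM in KO with LPS, against 307 ± 3.38 in untreated KO, and 604 ± 7.77 RPKM in WT with LPS, against 317 ± 10.3 in untreated WT; with LPA it was 296 ± 2.82 in KO and 355 ± 33.5 in WT. The share of Gnb4 in that sum was 6.51 ± 0.652% in KO with LPS, against 3.34 ± 0.269% untreated, and 7.404 ± 1.06% in WT with LPS, against 3.36 ± 0.333% untreated.

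The G gamma family split with LPS: Gng12 and Gng5 rose while Gng2, Gng7 and Gng10 fell in both genotypes. Gng12 (Entrez 14701, chromosome 6, 66896397 to 67021361) had the smallest adjusted p of all members for the difference in LPA effect. Gng12 was at 111, 119, 102 and 105 CPM in KO cells with LPA and at 409, 449.5, 412 and 391 CPM with LPS, against 119, 130.2, 129.5 and 118 CPM in untreated KO cells. In WT cells Gng12 was at 159, 166, 153 and 175 CPM with LPA and at 441, 448, 476 and 448 CPM with LPS, against 127, 126, 128 and 124 CPM untreated. Its 4 WT values with LPA were above all untreated WT values and above all KO values with LPA. Its log2 change with LPA was -0.19 ± 0.06 (edgeR adjusted p = 0.081) in KO and 0.37 ± 0.05 (adjusted p = 2.0e-05) in WT, a log2 difference of -0.56 ± 0.08 (adjusted p = 5.1e-05). The KO change of Gng12 was called as a fall with the replicate block, which pairs the KO libraries. Gng12 was lower in KO cells with LPA by a log2 difference of -0.58 ± 0.06 (edgeR adjusted p = 5.1e-08). LPS raised Gng12 by a log2 fold change of 1.74 ± 0.06 (edgeR adjusted p = 1.8e-17) in KO and 1.84 ± 0.06 (adjusted p = 6.7e-18) in WT.

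Gng2 moved opposite to Gng12. Gng2 was at 157, 143, 139.9 and 150.2 CPM in KO cells with LPA and at 47.8, 46.4, 47.2 and 50.1 CPM with LPS, against 178, 143, 152 and 157 CPM in untreated KO cells. In WT cells Gng2 was at 92.7, 88.8, 109 and 90.9 CPM with LPA and at 39.2, 45.3, 48.2 and 49.6 CPM with LPS, against 138, 152, 159 and 145 CPM untreated. The WT values with LPA lay between the LPS and the untreated values, and below all KO values with LPA. For Gng2, LPA gave a log2 change of -0.10 ± 0.07 (edgeR adjusted p = 0.69) in KO, where it was not called, and a fall of -0.64 ± 0.07 (adjusted p = 1.4e-06) in WT. For Gng2 the effects differed by a log2 value of 0.54 ± 0.11 (edgeR adjusted p = 0.00096). Gng2 was higher in KO cells with LPA by a log2 difference of 0.63 ± 0.07 (edgeR adjusted p = 8.2e-07). LPS lowered Gng2 by a log2 fold change of -1.72 ± 0.08 (edgeR adjusted p = 3.9e-15) in KO and -1.70 ± 0.08 (adjusted p = 2.1e-15) in WT. Gng7, which pairs with G olf in the mouse striatum, was lower in level. Gng7 was at 6.78, 5.94, 7.15 and 7.61 CPM in KO cells with LPA and at 1.19, 1.34, 1.53 and 1.099 CPM with LPS, against 6.28, 5.81, 7.06 and 7.18 CPM in untreated KO cells. In WT cells Gng7 was at 4.100, 4.15, 6.18 and 5.17 CPM with LPA and at 1.09, 1.29, 1.196 and 1.795 CPM with LPS, against 7.004, 7.61, 7.69 and 7.52 CPM untreated. Its log2 changes with LPS were -2.35 ± 0.17 (edgeR adjusted p = 1.0e-11) in KO and -2.47 ± 0.15 (adjusted p = 2.7e-13) in WT, and with LPA 0.06 ± 0.13 (adjusted p = 0.92) in KO and -0.61 ± 0.13 (adjusted p = 0.00066) in WT, a log2 difference of 0.67 ± 0.18 (adjusted p = 0.010).

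Gng4 had the largest LPA response of all members, and it did so in both genotypes. Gng4 was at 1.93, 2.601, 2.63 and 1.47 CPM in KO cells with LPA and at 1.26, 1.34, 1.25 and 0.863 CPM with LPS, against 0.757, 1.06, 0.995 and 0.328 CPM in untreated KO cells. In WT cells Gng4 was at 2.92, 3.72, 1.78 and 2.06 CPM with LPA and at 1.26, 0.962, 1.12 and 1.62 CPM with LPS, against 0.567, 0.914, 0.816 and 0.752 CPM untreated. All LPA values lay above all untreated values, at log2 changes of 1.48 ± 0.30 (edgeR adjusted p = 0.0074) in KO and 1.78 ± 0.26 (adjusted p = 1.8e-05) in WT. The effects were not called as different, at a log2 difference of -0.30 ± 0.40 (edgeR adjusted p = 0.62). The LPS effect was not called in KO at a log2 fold change of 0.62 ± 0.34 (edgeR adjusted p = 0.10) and called in WT at a log2 fold change of 0.70 ± 0.28 (adjusted p = 0.026). The WT call was lost without WT Cont 1, or WT LPS 4 (log2 0.54 to 0.81 with 1 library left out, adjusted p up to 0.10). The other 3 were Gng5 (42.5 to 80.8 CPM), Gng10 (14.02 to 20.5 CPM) and Gng11 (1.44 to 3.22 CPM). Gng5 rose with LPS by a log2 fold change of 0.65 ± 0.08 in KO and 0.71 ± 0.07 in WT and, with LPA, by a log2 fold change of 0.19 ± 0.07 in WT. That call for Gng5 was lost without WT Cont 2, 3 or 4, or WT LPA 1 or 2 (log2 0.12 to 0.27 with 1 library left out, adjusted p up to 0.19). Its log2 effect difference of -0.33 ± 0.11 was lost without KO Cont 3, or WT Cont 3, or WT LPA 1 or 2 (log2 -0.41 to -0.26 with 1 library left out, adjusted p up to 0.065). Gng10 fell with LPS by a log2 fold change of -0.20 ± 0.07 in KO and -0.30 ± 0.06 in WT, and Gng11 was called in no comparison, except as a fall with LPS under library totals (log2 -0.60 in KO and -0.43 in WT). Exons of 4 members (Gnb2, Gng10, Pde2a and Arrb2) overlap another annotated gene on the same strand, and exons of 15 (among them Gna12, Gnas, Gnal, Gnb5, Gng2, Gng12, Rgs16, Adcy3 and Pde7a) a gene on the other strand. The kit marks strand, but the counting setting is not given in the sources used here, so reads of overlapping genes may be split between them.

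**Figure D3:**
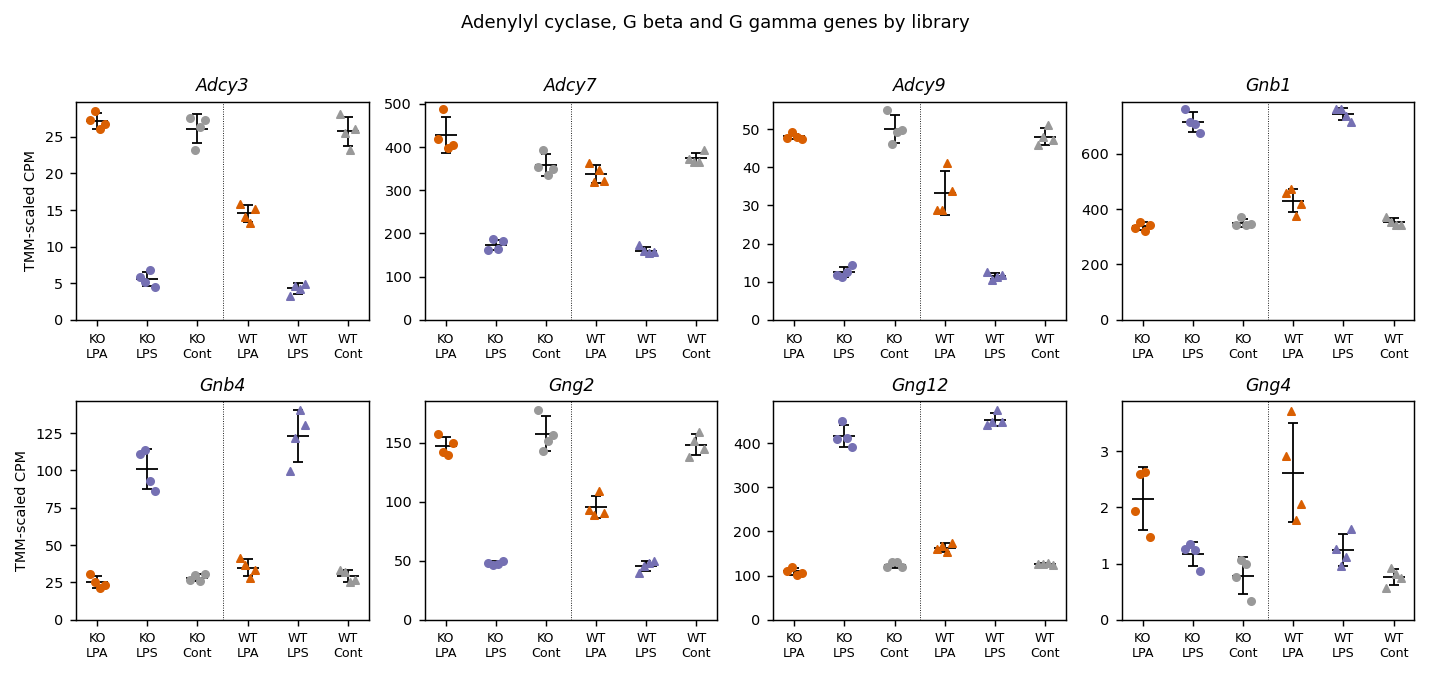
TMM-scaled CPM (vertical axes, each from 0) of 3 adenylyl cyclase, 2 G beta and 3 G gamma genes in each of the 24 libraries, by group (horizontal axes; circles KO, triangles WT), with the mean and SD of 4 libraries as bars. Adcy3 with LPA lies at 27.2 ± 1.03 CPM in KO and 14.6 ± 1.16 CPM in WT, with no overlap, and Gng4 with LPA lies above untreated in both genotypes.

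All 3 well-expressed adenylyl cyclases fell with LPS in both genotypes, and with LPA all 4 were higher in KO than in WT macrophages. Adcy3 (Entrez 104111, chromosome 12, 4133116 to 4213525), a cyclase stimulated by Gs and G olf, had the smallest adjusted p of all members for LPA in WT. Adcy3 was at 27.2, 28.6, 26.1 and 26.7 CPM in KO cells with LPA and at 5.86, 5.16, 6.79 and 4.47 CPM with LPS, against 27.6, 23.3, 26.3 and 27.3 CPM in untreated KO cells. In WT cells Adcy3 was at 15.8, 14.04, 13.2 and 15.2 CPM with LPA and at 3.33, 4.698, 4.19 and 4.96 CPM with LPS, against 28.1, 25.6, 23.2 and 26.1 CPM untreated. The 4 WT values with LPA were below every untreated and every KO LPA value, while KO values with LPA overlapped the untreated KO values. For Adcy3, LPA gave a log2 change of 0.05 ± 0.09 (edgeR adjusted p = 0.90) in KO, where it was not called, and a fall of -0.82 ± 0.09 (adjusted p = 1.0e-06) in WT. For Adcy3 the effects differed by a log2 value of 0.87 ± 0.13 (edgeR adjusted p = 0.00011). Adcy3 was higher in KO cells with LPA by a log2 difference of 0.90 ± 0.09 (edgeR adjusted p = 1.7e-07). LPS lowered Adcy3 by a log2 fold change of -2.22 ± 0.11 (edgeR adjusted p = 1.8e-14) in KO and -2.58 ± 0.11 (adjusted p = 3.7e-16) in WT.

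Adcy7, the main cyclase gene here and one whose enzyme is also stimulated by G beta gamma, fell with LPS as well. Adcy7 was at 419, 488, 398 and 404 CPM in KO cells with LPA and at 162, 187, 164 and 182 CPM with LPS, against 355, 394, 335 and 349.9 CPM in untreated KO cells. In WT cells Adcy7 was at 364, 318, 346 and 323 CPM with LPA and at 172, 159, 154 and 156 CPM with LPS, against 373, 365, 365 and 393 CPM untreated. With LPA its KO values all lay above the untreated KO values and its WT values all below the untreated WT values. The log2 change was a rise of 0.25 ± 0.07 (edgeR adjusted p = 0.044) in KO, against -0.15 ± 0.07 (adjusted p = 0.082) in WT, which was not called, though it was with the replicate block and with library totals. For Adcy7 the effects differed by a log2 value of 0.40 ± 0.10 (edgeR adjusted p = 0.0042). The KO rise lost its call without KO Cont 1, 3 or 4, or KO LPA 1, 2 or 4 (log2 0.18 to 0.30 with 1 library left out, adjusted p up to 0.16), and also (log2 0.26) when the fit held the compared groups alone. With LPA it was higher in KO by a log2 difference of 0.34 ± 0.07 (edgeR adjusted p = 0.00031). LPS lowered Adcy7 by a log2 fold change of -1.05 ± 0.07 (edgeR adjusted p = 2.2e-12) in KO and -1.22 ± 0.07 (adjusted p = 9.3e-14) in WT. Adcy9, a cyclase with low sensitivity to forskolin, fell with both agents in WT. Adcy9 was at 47.8, 49.1, 48.02 and 47.5 CPM in KO cells with LPA and at 11.9, 11.2, 12.5 and 14.3 CPM with LPS, against 55.02, 46.2, 49.3 and 49.8 CPM in untreated KO cells. In WT cells Adcy9 was at 28.9, 28.9, 41.1 and 33.8 CPM with LPA and at 12.6, 10.6, 11.3 and 11.8 CPM with LPS, against 45.8, 48.1, 51.1 and 47.1 CPM untreated. Its log2 changes with LPA were -0.06 ± 0.09 (edgeR adjusted p = 0.87) in KO and -0.53 ± 0.08 (adjusted p = 4.4e-05) in WT, a log2 difference of 0.48 ± 0.12 (adjusted p = 0.0063), and with LPS -2.01 ± 0.10 (adjusted p = 1.1e-14) in KO and -2.05 ± 0.09 (adjusted p = 1.8e-15) in WT.

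Adcy6 was low (0.501 to 2.19 CPM). By edgeR with TMM scaling and no block it was called in 1 comparison. It was higher in KO than in WT with LPA, by a log2 difference of 0.94 ± 0.37 (edgeR adjusted p = 0.039). That call for Adcy6 was lost without KO LPA 1, 3 or 4, or WT LPA 1 or 2 (log2 0.75 to 1.22 with 1 library left out, adjusted p up to 0.14). Summed per length, the cyclases stood at 79.7 ± 6.76 RPKM in KO with LPA, 30.4 ± 1.78 in KO with LPS and 68.8 ± 3.41 in untreated KO cells. In WT the sum was 60.8 ± 3.56 RPKM with LPA, 27.9 ± 1.302 with LPS and 70.9 ± 2.05 untreated. With LPA the lowest KO sum, 74.8 RPKM, lay above the highest WT sum, 64.6 RPKM.

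The phosphodiesterases moved in opposite directions with LPS, Pde4b and Pde10a upwards and Pde3b, Pde4d, Pde2a and Pde8b downwards in both genotypes. Pde4b (Entrez 18578, chromosome 4, 102087332 to 102607275) encodes a cAMP-specific enzyme that mouse macrophages are known to need for full TNF release to LPS. Pde4b was at 78.6, 54.4, 68.4 and 67.5 CPM in KO cells with LPA and at 405, 397, 381 and 355 CPM with LPS, against 67.7, 64.2, 82.2 and 72.04 CPM in untreated KO cells. In WT cells Pde4b was at 108, 119, 105 and 109 CPM with LPA and at 401, 387, 393 and 337 CPM with LPS, against 62.8, 76.8, 87.5 and 67.4 CPM untreated. With LPA the 4 WT values lay above all untreated WT values and all KO LPA values, whereas the KO values overlapped the untreated ones. LPS raised Pde4b by a log2 fold change of 2.43 ± 0.11 (edgeR adjusted p = 1.8e-15) in KO and 2.37 ± 0.10 (adjusted p = 1.6e-15) in WT. For Pde4b, LPA gave a log2 change of -0.09 ± 0.10 (edgeR adjusted p = 0.82) in KO, where it was not called, and a rise of 0.58 ± 0.10 (adjusted p = 0.00010) in WT, a log2 difference of -0.67 ± 0.14 (adjusted p = 0.0020). Pde4b was lower in KO cells with LPA by a log2 difference of -0.71 ± 0.10 (edgeR adjusted p = 8.7e-06). Its share of the summed phosphodiesterase RPKM was 46.3 ± 1.81% in KO and 42.5 ± 2.15% in WT with LPS, against 12.3 ± 1.45% in untreated KO and 12.8 ± 1.22% in untreated WT cells.

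Pde3b (Entrez 18576, chromosome 7, 114415222 to 114537938), whose enzyme degrades cAMP and is inhibited by cGMP, fell furthest of all members with LPS. Pde3b was at 156, 90.6, 125 and 118 CPM in KO cells with LPA and at 3.63, 3.32, 4.78 and 4.32 CPM with LPS, against 98.1, 47.1, 61.8 and 75.97 CPM in untreated KO cells. In WT cells Pde3b was at 35.6, 34.99, 64.2 and 29.6 CPM with LPA and at 2.803, 4.55, 4.300 and 4.01 CPM with LPS, against 49.9, 62.9, 79.8 and 61.6 CPM untreated. LPS values were far below all others, the KO values with LPA lay above all WT values with LPA, and LPA and untreated values overlapped within each genotype. LPS lowered Pde3b by a log2 fold change of -4.14 ± 0.31 (edgeR adjusted p = 1.0e-10) in KO and -4.02 ± 0.29 (adjusted p = 3.0e-11) in WT. With LPA it was higher in KO than in WT by a log2 difference of 1.58 ± 0.23 (edgeR adjusted p = 1.9e-05). The log2 effects, 0.79 ± 0.23 (edgeR adjusted p = 0.076) in KO and -0.63 ± 0.23 (adjusted p = 0.030) in WT, differed by a log2 value of 1.42 ± 0.32 (adjusted p = 0.0035). The KO effect was not called without the replicate block. The WT call was lost without WT Cont 2 or 3, or WT LPA 1, 2 or 4 (log2 -0.93 to -0.50 with 1 library left out, adjusted p up to 0.11). Pde3b varied with the replicate number in KO: replicate 1 was the highest and replicate 2 the lowest both with LPA and untreated.

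Pde4d, another cAMP-specific gene, was also higher in KO with LPA, at a lower level. Pde4d was at 6.49, 3.45, 5.01 and 4.71 CPM in KO cells with LPA and at 0.767, 0.353, 0.624 and 0.863 CPM with LPS, against 4.23, 2.33, 3.22 and 2.99 CPM in untreated KO cells. In WT cells Pde4d was at 1.503, 1.79, 2.98 and 1.74 CPM with LPA and at 0.420, 0.444, 0.374 and 0.317 CPM with LPS, against 2.51, 2.63, 4.01 and 2.96 CPM untreated. All KO values with LPA exceeded all WT values with LPA, and LPS values were below all untreated values. Pde4d was higher in KO with LPA by a log2 difference of 1.31 ± 0.22 (edgeR adjusted p = 6.3e-05). The log2 LPA effects, 0.62 ± 0.22 (edgeR adjusted p = 0.18) in KO and -0.60 ± 0.22 (adjusted p = 0.030) in WT, differed by a log2 value of 1.22 ± 0.31 (adjusted p = 0.0066). The KO effect on Pde4d was called as a rise with the replicate block, which pairs the KO libraries. The WT call with LPA was lost without WT Cont 3, or WT LPA 1, 2 or 4 (log2 -0.85 to -0.44 with 1 library left out, adjusted p up to 0.13). LPS lowered Pde4d by a log2 fold change of -2.30 ± 0.31 (edgeR adjusted p = 3.1e-07) in KO and -2.94 ± 0.28 (adjusted p = 1.3e-09) in WT. Pde7a, a cAMP-specific gene known from T cells, differed between genotypes with LPA. Pde7a was at 15.01, 13.1, 14.7 and 16.1 CPM in KO cells with LPA and at 9.77, 12.8, 11.3 and 10.9 CPM with LPS, against 14.6, 12.9, 12.3 and 13.8 CPM in untreated KO cells. In WT cells Pde7a was at 8.77, 9.56, 11.05 and 10.1 CPM with LPA and at 12.1, 12.1, 13.8 and 13.4 CPM with LPS, against 12.5, 12.01, 14.4 and 13.7 CPM untreated. The WT values with LPA lay below all untreated WT and all KO LPA values. For Pde7a, LPA gave a log2 change of 0.14 ± 0.09 (edgeR adjusted p = 0.61) in KO, where it was not called, and a fall of -0.41 ± 0.09 (adjusted p = 0.00066) in WT. For Pde7a the effects differed by a log2 value of 0.55 ± 0.12 (edgeR adjusted p = 0.0030). Pde7a was higher in KO cells with LPA by a log2 difference of 0.58 ± 0.09 (edgeR adjusted p = 1.9e-05). With LPS its fall of -0.26 ± 0.09 in KO was lost without KO Cont 1, or KO LPS 1 (log2 -0.33 to -0.20 with 1 library left out, adjusted p up to 0.064).

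Pde8a, which encodes a cAMP-specific enzyme of high affinity, rose with LPA in both genotypes. Pde8a was at 52.8, 45.98, 48.8 and 50.7 CPM in KO cells with LPA and at 39.5, 37.95, 37.4 and 38.7 CPM with LPS, against 40.6, 36.6, 39.5 and 39.9 CPM in untreated KO cells. In WT cells Pde8a was at 45.6, 46.6, 44.1 and 40.6 CPM with LPA and at 39.2, 38.4, 36.8 and 32.99 CPM with LPS, against 36.2, 40.1, 41.8 and 38.1 CPM untreated. The KO values with LPA were above all untreated KO values, and in WT the ranges overlapped. The log2 changes were 0.34 ± 0.06 (edgeR adjusted p = 0.0016) in KO and 0.18 ± 0.06 (adjusted p = 0.015) in WT, where the WT call was lost without WT Cont 1, or WT LPA 1 or 2 (log2 0.15 to 0.22 with 1 library left out, adjusted p up to 0.061). They were not called as different, at a log2 difference of 0.16 ± 0.08 (edgeR adjusted p = 0.15). Pde8b, its close relative, was not called with LPA and fell with LPS. Pde8b was at 2.53, 3.28, 3.02 and 3.995 CPM in KO cells with LPA and at 1.19, 1.34, 1.39 and 2.35 CPM with LPS, against 3.61, 3.38, 3.22 and 4.100 CPM in untreated KO cells. In WT cells Pde8b was at 3.303, 2.54, 4.396 and 4.18 CPM with LPA and at 1.23, 1.26, 1.65 and 1.62 CPM with LPS, against 3.34, 3.67, 3.71 and 4.18 CPM untreated. All LPS values lay below all untreated values, at a log2 fold change of -1.20 ± 0.21 (edgeR adjusted p = 1.7e-05) in KO and -1.37 ± 0.19 (adjusted p = 4.1e-07) in WT. Pde10a, whose enzyme takes both cAMP and cGMP, was among the lowest members. Pde10a was at 0.495, 0.339, 0.243 and 0.238 CPM in KO cells with LPA and at 1.33, 0.777, 0.832 and 0.785 CPM with LPS, against 0.401, 0.264, 0.237 and 0.287 CPM in untreated KO cells. In WT cells Pde10a was at 0.296, 0.654, 0.306 and 0.473 CPM with LPA and at 1.68, 1.44, 1.27 and 0.775 CPM with LPS, against 0.175, 0.305, 0.223 and 0.150 CPM untreated. Every LPS value exceeded every untreated value, at a log2 fold change of 1.63 ± 0.37 (edgeR adjusted p = 0.00035) in KO and 2.55 ± 0.30 (adjusted p = 3.5e-08) in WT. The WT rise with LPA of 0.98 ± 0.33 (edgeR adjusted p = 0.019) was lost without WT Cont 1 or 4, or WT LPA 2 (log2 0.71 to 1.22 with 1 library left out, adjusted p up to 0.11).

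Of the other 6, Pde4a (cAMP-specific) rose with LPS by a log2 fold change of 0.42 ± 0.08 in KO, where library totals gave -0.08, and 0.65 ± 0.08 in WT. Pde2a (stimulated by cGMP) fell by a log2 fold change of -0.65 ± 0.11 in KO and -0.84 ± 0.10 in WT. Pde2a was higher in KO with LPA by a log2 difference of 0.41 ± 0.10 (edgeR adjusted p = 0.0017), with no overlap of ranges. Its log2 effect difference of 0.38 ± 0.14 was lost without KO Cont 2 or 4, or KO LPA 1, 3 or 4, or WT Cont 2, 3 or 4, or WT LPA 1, 2 or 4 (log2 0.30 to 0.44 with 1 library left out, adjusted p up to 0.12). Pde1b, activated by calcium and calmodulin, rose with LPS by a log2 fold change of 0.28 ± 0.12 in KO and 0.64 ± 0.12 in WT. In KO library totals gave -0.22 and the call was lost without KO Cont 1, 3 or 4, or KO LPS 2 (log2 0.11 to 0.36 with 1 library left out, adjusted p up to 0.32). Pde7b fell in KO with LPS by a log2 fold change of -0.31 ± 0.13. That call for Pde7b was lost without KO Cont 2 or 4, or KO LPS 1, 2 or 3 (log2 -0.40 to -0.19 with 1 library left out, adjusted p up to 0.19). Pde6d encodes a carrier of prenylated proteins instead of a catalytic subunit. Its log2 effect difference of -0.26 ± 0.09 was lost without KO Cont 1, 2 or 3, or KO LPA 1 or 2, or WT Cont 2 or 4, or WT LPA 1, 2 or 4 (log2 -0.31 to -0.21 with 1 library left out, adjusted p up to 0.095). Pde5a, which is specific for cGMP, was called in no comparison by edgeR with TMM scaling and no block (0.555 to 2.501 CPM). With the replicate block it was called with LPS in KO (log2 -0.55). Their ranges over the 24 libraries were 67.4 to 142 CPM for Pde1b, 27.9 to 55.02 CPM for Pde7b, 15.6 to 29.5 CPM for Pde4a, 8.62 to 23.97 CPM for Pde2a and 13.9 to 18.6 CPM for Pde6d.

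Summed per length, phosphodiesterase RNA was 112 ± 7.56 RPKM in KO with LPA, 138 ± 6.54 in KO with LPS and 96.3 ± 3.65 in untreated KO, and 100.2 ± 2.25 in WT with LPA, 148 ± 6.24 in WT with LPS and 95.3 ± 5.502 in untreated WT. Pde3b made up 20.5 ± 3.13% of that sum in KO with LPA, against 7.74 ± 2.87% in WT with LPA, and 0.556 ± 0.113% in KO and 0.501 ± 0.0960% in WT with LPS.

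**Figure D4:**
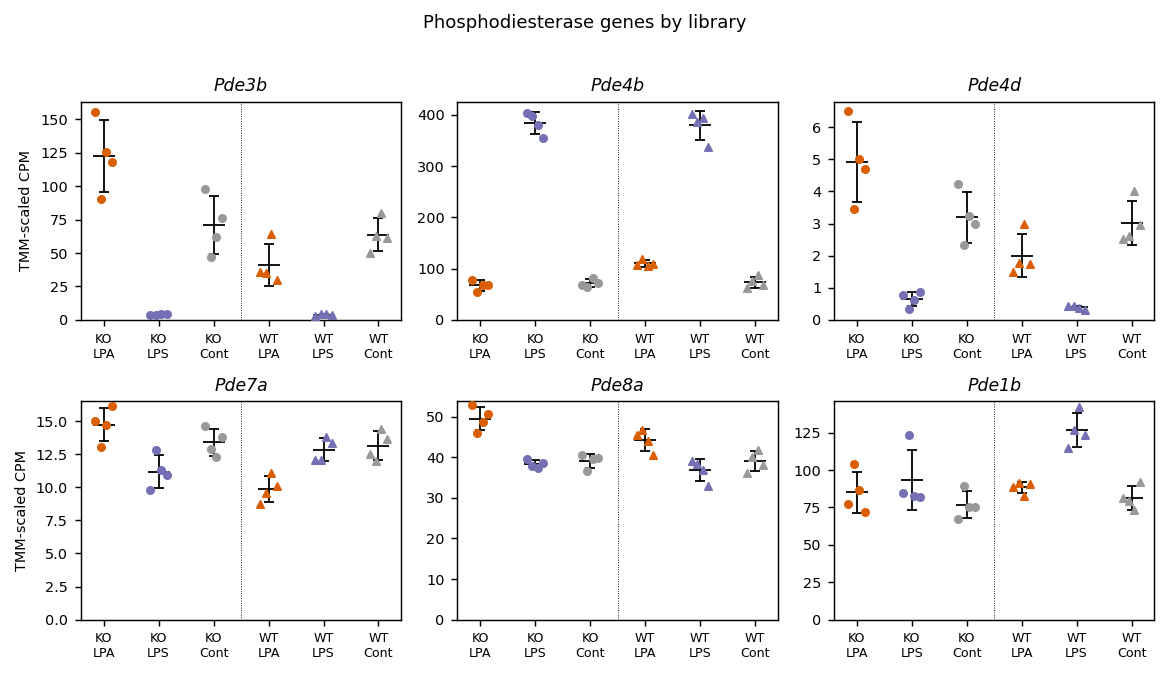
TMM-scaled CPM (vertical axes, each from 0) of 6 phosphodiesterase genes in each of the 24 libraries, by group (horizontal axes; circles KO, triangles WT), with the mean and SD of 4 libraries as bars. Pde3b with LPS lies at 4.01 ± 0.661 CPM in KO and 3.92 ± 0.774 CPM in WT, below all other groups, while Pde4b with LPS lies at 385 ± 21.8 CPM in KO and 379.5 ± 28.9 CPM in WT, above them.

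With LPS 10 RGS genes were called in KO, all but Rgs12, and all 11 in WT, where 82.3% of all genes were called in KO and 84.2% in WT. Rgs10 (Entrez 67865, chromosome 7, 128373621 to 128419506), which encodes a small RGS protein known to restrain inflammatory activation of mouse microglia, led the family untreated and fell. Rgs10 was at 169, 169, 167 and 162 CPM in KO cells with LPA and at 54.6, 55.4, 54.9 and 58.9 CPM with LPS, against 184, 169, 174 and 165 CPM in untreated KO cells. In WT cells Rgs10 was at 94.7, 93.5, 134 and 124 CPM with LPA and at 50.6, 48.01, 46.96 and 57.6 CPM with LPS, against 170.4, 177, 187 and 182 CPM untreated. Every WT value with LPA lay below every untreated WT and every KO LPA value. For Rgs10, LPA gave a log2 change of -0.06 ± 0.09 (edgeR adjusted p = 0.87) in KO, where it was not called, and a fall of -0.68 ± 0.08 (adjusted p = 2.9e-06) in WT, a log2 difference of 0.63 ± 0.12 (adjusted p = 0.00086). Rgs10 was higher in KO cells with LPA by a log2 difference of 0.58 ± 0.09 (edgeR adjusted p = 1.2e-05). LPS lowered Rgs10 by a log2 fold change of -1.63 ± 0.09 (edgeR adjusted p = 8.4e-14) in KO and -1.82 ± 0.09 (adjusted p = 6.9e-15) in WT. Its share of the summed RGS level was 27.5 ± 1.79% in KO with LPS, against 58.4 ± 2.46% untreated, and 22.3 ± 3.92% in WT with LPS, against 58.9 ± 1.87% untreated.

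Rgs16 (Entrez 19734, chromosome 1, 153740353 to 153745468), whose product acts on Gi and Gq subunits, had the largest rise of all members. Rgs16 was at 0.248, 0.622, 0.146 and 0.238 CPM in KO cells with LPA and at 8.79, 12.3, 8.46 and 5.42 CPM with LPS, against 0.490, 0.687, 0.189 and 0.328 CPM in untreated KO cells. In WT cells Rgs16 was at 1.21, 0.830, 0.556 and 0.622 CPM with LPA and at 8.62, 8.66, 6.92 and 8.696 CPM with LPS, against 0.480, 0.457, 0.198 and 0.376 CPM untreated. LPS values were above all others, and WT values with LPA lay above all untreated WT values. With LPS it rose by a log2 fold change of 4.38 ± 0.33 (edgeR adjusted p = 3.0e-11) in KO and 4.41 ± 0.30 (adjusted p = 3.0e-12) in WT. With LPA it rose in WT by a log2 fold change of 1.07 ± 0.34 (edgeR adjusted p = 0.013). That call for Rgs16 was lost without WT Cont 3, or WT LPA 1 (log2 0.80 to 1.21 with 1 library left out, adjusted p up to 0.081) and with counts thinned to the smallest library (log2 1.00). Rgs16 was lower in KO cells with LPA by a log2 difference of -1.41 ± 0.42 (edgeR adjusted p = 0.0085), with overlapping ranges. The log2 difference in effect, -1.52 ± 0.61 (edgeR adjusted p = 0.064), was not called. It was called by DESeq2 (log2 -1.54) and with the replicate block (log2 -1.53). Its calls with 1 library left out are not given here. Rgs9, known from retina and striatum, was the lowest member, with 0 counts in 2 untreated KO libraries. Rgs9 was at 0.198, 0.0565, 0.0973 and 0.238 CPM in KO cells with LPA and at 1.604, 0.848, 1.18 and 1.099 CPM with LPS, against 0.178, 0, 0 and 0.246 CPM in untreated KO cells. In WT cells Rgs9 was at 0.182, 0.428, 0.278 and 0.174 CPM with LPA and at 1.51, 1.26, 1.12 and 0.880 CPM with LPS, against 0.218, 0.152, 0.0742 and 0.0501 CPM untreated. All LPS values exceeded all untreated values, at a log2 fold change of 3.32 ± 0.54 (edgeR adjusted p = 5.5e-06) in KO and 3.18 ± 0.41 (adjusted p = 2.0e-07) in WT.

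Rgs1, whose product dampens chemokine receptor signals in leukocytes, rose with LPS. Rgs1 was at 46.2, 39.1, 34.1 and 30.2 CPM in KO cells with LPA and at 88.4, 98.4, 72.9 and 76.3 CPM with LPS, against 31.9, 43.03, 27.2 and 35.5 CPM in untreated KO cells. In WT cells Rgs1 was at 71.8, 45.8, 35.6 and 37.5 CPM with LPA and at 68.6, 119, 140.1 and 135 CPM with LPS, against 38.9, 40.8, 32.02 and 30.6 CPM untreated. LPS values lay above all untreated values, at a log2 fold change of 1.29 ± 0.23 (edgeR adjusted p = 3.3e-05) in KO and 1.70 ± 0.22 (adjusted p = 5.2e-07) in WT, and LPA changes were not called in KO or WT. Rgs14, which encodes a scaffold that also binds Ras and Rap proteins, rose as well. Rgs14 was at 24.02, 30.03, 26.3 and 25.1 CPM in KO cells with LPA and at 56.4, 59.6, 50.8 and 49.3 CPM with LPS, against 32.5, 31.9, 30.5 and 32.8 CPM in untreated KO cells. In WT cells Rgs14 was at 36.4, 35.2, 31.1 and 32.5 CPM with LPA and at 53.5, 65.3, 96.6 and 72.6 CPM with LPS, against 33.9, 32.5, 32.2 and 30.1 CPM untreated. LPS values exceeded all untreated values, at a log2 fold change of 0.76 ± 0.12 (edgeR adjusted p = 4.6e-06) in KO and 1.16 ± 0.11 (adjusted p = 2.9e-09) in WT. KO values with LPA lay below all untreated KO and all WT LPA values. The log2 difference from WT with LPA was -0.36 ± 0.12 (edgeR adjusted p = 0.016). That call for Rgs14 was lost without KO LPA 1 (log2 -0.43 to -0.32 with 1 library left out, adjusted p up to 0.052), and the log2 change with LPA in KO, -0.28 ± 0.12 (edgeR adjusted p = 0.32), was not called.

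Rgs18, known from platelets and megakaryocytes, fell with each agent in each genotype. Rgs18 was at 15.6, 16.2, 14.5 and 15.3 CPM in KO cells with LPA and at 17.02, 14.7, 14.8 and 15.2 CPM with LPS, against 25.4, 25.5, 21.9 and 24.2 CPM in untreated KO cells. In WT cells Rgs18 was at 16.6, 16.8, 15.998 and 15.6 CPM with LPA and at 14.7, 16.9, 17.5 and 14.5 CPM with LPS, against 22.997, 24.1, 23.3 and 18.4 CPM untreated. All treated values lay below all untreated values of the same genotype. LPA lowered Rgs18 by a log2 fold change of -0.66 ± 0.08 (edgeR adjusted p = 5.5e-05) in KO and -0.45 ± 0.08 (adjusted p = 9.5e-05) in WT, and LPS by a log2 fold change of -0.65 ± 0.08 (adjusted p = 1.8e-07) in KO and -0.48 ± 0.08 (adjusted p = 4.8e-06) in WT. The log2 difference in LPA effect, -0.21 ± 0.11 (edgeR adjusted p = 0.17), was not called. Rgs11, of the R7 group that binds Gnb5, was low and fell with LPS. Rgs11 was at 1.39, 1.19, 1.85 and 0.9988 CPM in KO cells with LPA and at 0.488, 0.495, 0.277 and 0.314 CPM with LPS, against 1.16, 1.32, 1.33 and 0.779 CPM in untreated KO cells. In WT cells Rgs11 was at 1.57, 1.56, 1.34 and 1.62 CPM with LPA and at 0.280, 0.333, 0.262 and 0.211 CPM with LPS, against 1.24, 1.199, 0.792 and 1.303 CPM untreated. LPS values were below all untreated values, at a log2 fold change of -1.51 ± 0.29 (edgeR adjusted p = 4.5e-05) in KO and -2.05 ± 0.25 (adjusted p = 6.2e-08) in WT.

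Of the other 4, Rgs2, which acts on Gq subunits, fell with LPS. Its log2 fold change was -0.86 ± 0.17 in KO and -0.55 ± 0.16 in WT. With LPA its KO values lay above all WT values, by a log2 difference of 0.51 ± 0.16 (edgeR adjusted p = 0.013). That call for Rgs2 was lost without WT LPA 2 (log2 0.44 to 0.64 with 1 library left out, adjusted p up to 0.051). Rgs3 rose with LPS by a log2 fold change of 0.82 ± 0.11 in KO and 0.66 ± 0.10 in WT, and with LPA in WT by a log2 fold change of 0.26 ± 0.10. That call for Rgs3 was lost without WT Cont 2, 3 or 4, or WT LPA 1, 2 or 4 (log2 0.20 to 0.34 with 1 library left out, adjusted p up to 0.15). Its log2 effect difference of -0.48 ± 0.15 was lost without KO Cont 4, or WT LPA 2 (log2 -0.57 to -0.37 with 1 library left out, adjusted p up to 0.063). Rgs19 rose with LPS by a log2 fold change of 0.14 ± 0.04 in KO and 0.09 ± 0.04 in WT, which turned to falls with library totals. The WT call was lost without WT Cont 2, 3 or 4, or WT LPS 1, 2 or 4 (log2 0.07 to 0.11 with 1 library left out, adjusted p up to 0.16). Rgs12 fell with LPS in WT by a log2 fold change of -0.47 ± 0.14, and with the replicate block also in KO (log2 -0.30). Over the 24 libraries Rgs2 ranged over 62.6 to 186 CPM, Rgs3 over 7.82 to 19.3 CPM, Rgs12 over 2.59 to 5.05 CPM and Rgs19 over 70.4 to 87.1 CPM. The summed RGS level was 332 ± 11.3 RPKM in KO with LPA, 233 ± 12.98 in KO with LPS and 339 ± 13.3 in untreated KO, and 269 ± 19.6, 265 ± 40.4 and 347 ± 6.13 RPKM in WT with LPA, with LPS and untreated.

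**Figure D5:**
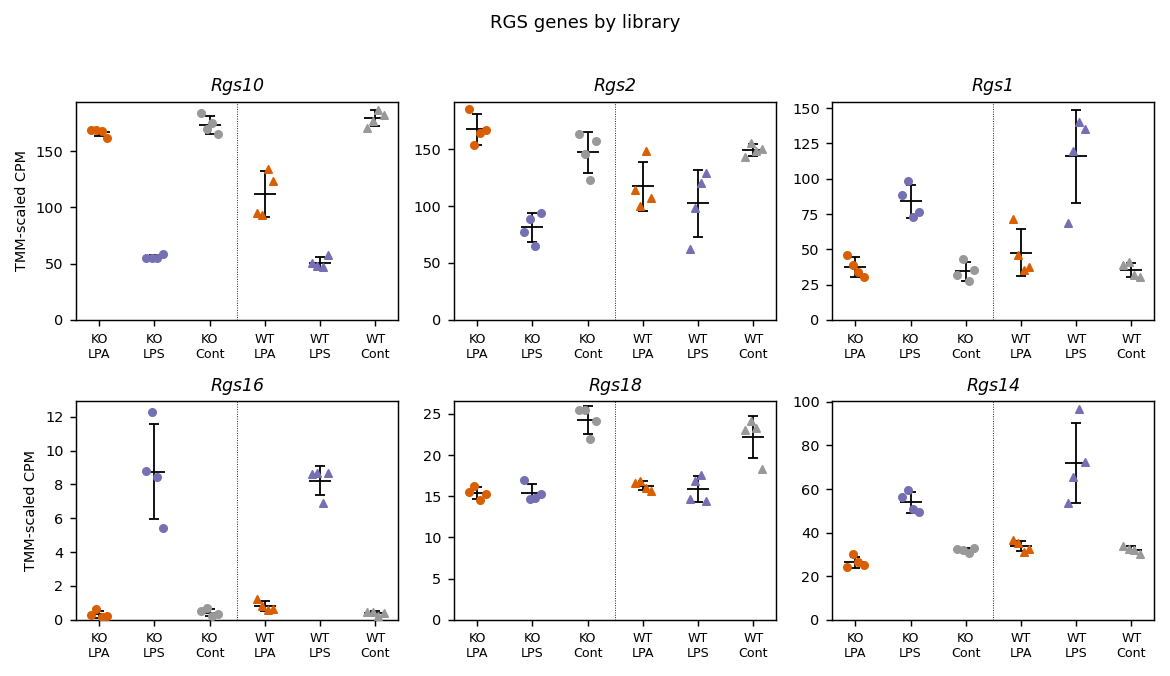
TMM-scaled CPM (vertical axes, each from 0) of 6 RGS genes in each of the 24 libraries, by group (horizontal axes; circles KO, triangles WT), with the mean and SD of 4 libraries as bars. Rgs10 with LPA lies at 167 ± 3.31 CPM in KO and 111 ± 20.5 CPM in WT without overlap, and Rgs16 lies at 8.74 ± 2.82 CPM in KO and 8.22 ± 0.871 CPM in WT with LPS, above all other groups.

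Among the receptor kinases, Grk6 and Grk4, both anchored to the membrane without G beta gamma, fell with LPS. Grk6 was at 47.9, 41.8, 44.8 and 46.1 CPM in KO cells with LPA and at 24.8, 22.5, 25.7 and 25.98 CPM with LPS, against 49.1, 44.1, 46.6 and 48.6 CPM in untreated KO cells. In WT cells Grk6 was at 35.6, 34.9, 41.2 and 37.7 CPM with LPA and at 27.1, 23.3, 22.3 and 21.8 CPM with LPS, against 44.2, 45.3, 45.5 and 43.7 CPM untreated. The WT values with LPA lay below all untreated WT and all KO LPA values, and LPS values lay below all untreated values. Grk6 fell with LPS by a log2 fold change of -0.93 ± 0.07 (edgeR adjusted p = 1.5e-11) in KO and -0.92 ± 0.07 (adjusted p = 5.9e-12) in WT and with LPA by a log2 fold change of -0.26 ± 0.06 (adjusted p = 0.0024) in WT. Grk6 was higher in KO with LPA by a log2 difference of 0.28 ± 0.06 (edgeR adjusted p = 0.0013). The log2 change with LPA in KO was -0.06 ± 0.07 (edgeR adjusted p = 0.80). The log2 difference in effect, 0.20 ± 0.09 (edgeR adjusted p = 0.10), was not called. Grk4 was at 1.93, 2.54, 2.38 and 1.998 CPM in KO cells with LPA and at 0.279, 0.424, 0.485 and 0.785 CPM with LPS, against 2.27, 1.69, 1.52 and 1.804 CPM in untreated KO cells. In WT cells Grk4 was at 0.752, 1.03, 2.25 and 1.32 CPM with LPA and at 0.491, 0.555, 0.598 and 0.458 CPM with LPS, against 1.898, 1.87, 1.86 and 2.25 CPM untreated. Grk4 LPS values lay below all untreated values, at a log2 fold change of -1.90 ± 0.33 (edgeR adjusted p = 1.4e-05) in KO and -1.90 ± 0.27 (adjusted p = 6.5e-07) in WT. Its fall with LPA in WT, -0.57 ± 0.23 (edgeR adjusted p = 0.045), was lost without WT Cont 1, 2, 3 or 4, or WT LPA 1, 2 or 4 (log2 -0.93 to -0.37 with 1 library left out, adjusted p up to 0.19). Its higher level in KO with LPA, 0.74 ± 0.24 (edgeR adjusted p = 0.014), was lost without WT LPA 1 or 2 (log2 0.53 to 1.10 with 1 library left out, adjusted p up to 0.059). Grk2, which G beta gamma brings to the membrane, rose with LPS by a log2 fold change of 0.28 ± 0.06 in KO and 0.32 ± 0.06 in WT, which turned to falls with library totals. Grk5 rose in KO by a log2 fold change of 0.21 ± 0.08, also a fall with library totals and lost without KO Cont 2, or KO LPS 1 or 3 (log2 0.18 to 0.26 with 1 library left out, adjusted p up to 0.065). Grk3 was called in no comparison. With the replicate block its log2 change with LPS was called at 0.22 ± 0.08 in KO, and with library totals at -0.34 in WT. The ranges over all libraries were 290.2 to 462 CPM for Grk2, 42.2 to 81.3 CPM for Grk3 and 18.7 to 26.2 CPM for Grk5.

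The 2 arrestin genes, whose products bind phosphorylated receptors, parted with LPS. Arrb1 was at 284, 313, 308 and 303 CPM in KO cells with LPA and at 140.0, 143, 156 and 171 CPM with LPS, against 327, 319, 328 and 308 CPM in untreated KO cells. In WT cells Arrb1 was at 255, 279, 324 and 302 CPM with LPA and at 123, 107, 91.002 and 116 CPM with LPS, against 308, 298, 325 and 311 CPM untreated. LPS values of Arrb1 (Entrez 109689, chromosome 7, 99535147 to 99606772) were below all untreated values in both genotypes. The 4 KO values with LPS were above the 4 WT values. It fell with LPS by a log2 fold change of -1.07 ± 0.08 (edgeR adjusted p = 2.2e-11) in KO and -1.50 ± 0.08 (adjusted p = 4.4e-14) in WT and was higher in KO with LPS by a log2 difference of 0.48 ± 0.08 (adjusted p = 0.0027), the 1 call among the members in that comparison. The log2 difference in LPS effect was 0.43 ± 0.11 (edgeR adjusted p = 0.32) and was not called. Leaving out 1 library gave 1 to 7 members in this comparison: 7 without WT LPS 1, 4 without KO LPS 2 and 2 without KO LPS 4, with Arrb1 called each time, beside 4.98%, 3.66% and 1.64% of all genes. Arrb2 was at 281, 253, 283 and 281 CPM in KO cells with LPA and at 313, 279.8, 302 and 318 CPM with LPS, against 245, 230.5, 235 and 251 CPM in untreated KO cells. In WT cells Arrb2 was at 267, 295, 258 and 284 CPM with LPA and at 323, 321, 299 and 293 CPM with LPS, against 246, 246, 253 and 267 CPM untreated. Arrb2 values with LPS lay above all untreated values, at a log2 fold change of 0.33 ± 0.05 (edgeR adjusted p = 6.8e-06) in KO and 0.29 ± 0.05 (adjusted p = 3.8e-05) in WT, rises that became falls with library totals. Its log2 change with LPA was 0.19 ± 0.05 (edgeR adjusted p = 0.069) in KO, where all values lay above the untreated ones, and 0.13 ± 0.05 (adjusted p = 0.062) in WT. Both were called by DESeq2 and with the replicate block (log2 0.19 in KO and 0.13 in WT). The share of Arrb2 in the summed arrestin RPKM was 87.7 ± 0.850% in KO with LPS, against 72.8 ± 1.14% untreated, and 90.999 ± 0.9988% in WT with LPS, against 74.5 ± 0.815% untreated.

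Other genes of the pathway were counted in 4 lists, which share the background percentages above. Of 18 measured genes for cAMP effectors and anchors, LPA changed 2 up and 7 down in WT, the median log2 change was 0.03 in KO and -0.10 in WT, and 9 were higher and 2 lower in KO than in WT with LPA. The PKA catalytic gene Prkacb stood at 186 ± 4.86 CPM in KO and 139.8 ± 17.3 CPM in WT with LPA, against 199.8 ± 7.36 CPM in untreated KO and 194 ± 10.4 CPM in untreated WT cells, with an LPA effect in WT of -0.47 ± 0.06 (edgeR adjusted p = 1.0e-05). Pkib, which encodes a PKA inhibitor, fell by a log2 fold change of -1.14 ± 0.12 (edgeR adjusted p = 3.0e-07) in WT, and Prkar2b, a PKA regulatory gene, rose by a log2 fold change of 0.80 ± 0.09 (edgeR adjusted p = 1.5e-06). Akap13, which encodes an anchor of PKA, was higher in KO with LPA by a log2 difference of 0.67 ± 0.10 (edgeR adjusted p = 9.4e-06). With LPS the list split into 2 up and 14 down in KO and 3 up and 14 down in WT, with a median log2 change of -0.54 in KO and -0.64 in WT, against -0.05 and -0.04 for all genes. Prkaca fell by a log2 fold change of -0.93 ± 0.06 (edgeR adjusted p = 1.6e-12) in KO and -0.99 ± 0.06 (edgeR adjusted p = 2.3e-13) in WT.

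Of 16 measured CREB factors and genes induced by cAMP, LPA changed 5 up and 1 down in KO and 4 up and 1 down in WT. Fos rose with LPA by a log2 fold change of 0.71 ± 0.11 (edgeR adjusted p = 0.00034) in KO and 0.75 ± 0.10 (edgeR adjusted p = 1.2e-05) in WT, and Dusp1, a phosphatase gene, by a log2 fold change of 0.94 ± 0.16 (edgeR adjusted p = 9.4e-05) in WT. Thbs1 rose in KO by a log2 fold change of 1.68 ± 0.37 (edgeR adjusted p = 0.014), and Per1 was higher in KO than in WT with LPA by a log2 difference of 0.49 ± 0.07 (edgeR adjusted p = 1.1e-05). The LPA effect differed for 4 of the 16, higher in KO for 3 and lower for 1. With LPS 7 rose and 7 fell in KO and 8 rose and 5 fell in WT. Of 18 measured effectors, exchange factors and other regulators, LPA changed 4 up and 2 down in WT, and the median log2 change was 0.04 in KO and -0.01 in WT. Pik3r5, the regulatory subunit gene of the PI3-kinase driven by G beta gamma, stood at 368 ± 26.7 CPM in KO and 582 ± 88.1 CPM in WT with LPA, and was lower in KO by a log2 difference of -0.66 ± 0.10 (edgeR adjusted p = 1.2e-05). Its catalytic partner Pik3cg was lower in KO by a log2 difference of -0.51 ± 0.09 (edgeR adjusted p = 0.00015). LPS raised Pik3r5 by a log2 fold change of 1.91 ± 0.10 (edgeR adjusted p = 3.8e-14) in KO and 1.88 ± 0.10 (edgeR adjusted p = 3.3e-14) in WT, and changed 7 up and 6 down in KO and 7 up and 7 down in WT.

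The last list held 11 measured genes of Gs-coupled receptors, counting Ramp1, which encodes a receptor partner. LPA changed 1 of the 11 up and 1 down in KO and 5 up and 2 down in WT. The effect differed for 8, higher in KO for 2 and lower for 6. Adora2a, the adenosine A2a receptor gene, stood at 1.07 ± 0.282 CPM in KO and 3.58 ± 1.24 CPM in WT with LPA, against 0.748 ± 0.217 CPM in untreated KO and 0.807 ± 0.0803 CPM in untreated WT, and was lower in KO with LPA by a log2 difference of -1.73 ± 0.29 (edgeR adjusted p = 6.7e-05). With LPS it reached 97.8 ± 15.7 CPM in KO and 113 ± 17.998 CPM in WT. Ptgir, the prostacyclin receptor gene, rose with LPA in WT by a log2 fold change of 0.81 ± 0.12 (edgeR adjusted p = 1.5e-05). Ptger4, a prostaglandin E2 receptor gene, fell in KO by a log2 fold change of -0.46 ± 0.08 (edgeR adjusted p = 0.0017). LPS changed 5 up and 5 down in KO and 6 up and 5 down in WT. With LPS, KO and WT differed in 1 gene of the cAMP list (Prkar2b, higher by a log2 difference of 0.45 ± 0.10 (edgeR adjusted p = 0.020)), 1 of the CREB list (Dusp1, lower by a log2 difference of -0.68 ± 0.16 (edgeR adjusted p = 0.022)) and 1 of the receptor list.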

How the data were processed

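RNA of 24 macrophage libraries was sequenced in pairs of 51-base reads from a stranded mRNA kit, per the labels' protocols. The authors aligned with STAR 2.5.2a to mm10, per the submitters' processing notes, and deposited 1 table of raw counts per gene with gene lengths. How reads were counted, and with which strand setting and annotation, is not given in the sources used here. In the deposited table every gene reached 0.5 CPM in at least 6 libraries. Counts were fitted with edgeR 4.0.16 in R 4.3.3 (TMM scaling, quasi-likelihood test, 6 group means over 24 libraries), and p-values were adjusted over all 11590 genes by Benjamini-Hochberg. The filter of edgeR removed 0 genes, and the scripts were tested on simulated data. Comparisons were treated against untreated within a genotype, KO against WT within a treatment, the difference between those effects, and LPA against LPS in WT. Values in every library are given for members changed at least 2-fold with LPA or LPS, the member of each family with the smallest adjusted p there, and up to 10 with the smallest adjusted p in each comparison of genotypes; from each pathway list, up to 4 genes per comparison. The members and lists were chosen with earlier results of these data known. Alternatives were DESeq2 1.42.0, other scaling, filters, thinning, a replicate block, the compared groups alone and each library left out. All 36 pairs of replicates differed by more than sampling noise (chi-square per degree of freedom 4.11 to 77.4). Replicate numbers were taken to pair the libraries within KO, where the deviations of all 12 same-numbered pairs correlated at 0.114 to 0.772 across genes, but not between genotypes (-0.576 to 0.253), and in WT 10 of 12 pairs passed 0.1, among them all 4 of LPA with untreated cells.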

Additional observations from a re-analysis of the deposited data

Results flagged for a closer look

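In 7 of 198 groups of 4 libraries, 1 library of a member stood apart from the other 3 by Dixon's test at the 95% level, where chance gives about 5% of groups. Among KO libraries, Arrb2 was at 252.665 CPM in KO LPA 2, below 280.522 to 283.213 CPM in the others, and Pde10a was at 1.32533 CPM in KO LPS 1, above 0.777378 to 0.831914 CPM. In untreated KO cells replicate 2 was the highest for Gnal, at 1.85012 CPM against 1.55927 to 1.59903 CPM, and for Gnb1, at 371.821 CPM against 341.602 to 345.268 CPM. Among WT libraries, Rgs16 was at 6.91675 CPM in WT LPS 3, below 8.61942 to 8.69584 CPM. In untreated WT cells replicate 4 was the lowest for Gnas, at 534.856 CPM against 578.739 to 586.85 CPM, and the highest for Grk4, at 2.25487 CPM against 1.85565 to 1.89825 CPM.

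The log2 change with LPA differed between KO and WT by edgeR's interaction test for 18 members, where 28.5% of all genes did. The difference (KO minus WT) was 0.87 for Adcy3, 0.40 for Adcy7 and 0.48 for Adcy9 among the cyclases. Among the phosphodiesterases it was 1.42 for Pde3b, 1.22 for Pde4d, 0.55 for Pde7a and 0.38 for Pde2a, and on the other side -0.67 for Pde4b and -0.26 for Pde6d. It was 0.46 for Gna12, 0.79 for Gnb5, -0.34 for Gnb1, 0.54 for Gng2, 0.67 for Gng7, -0.56 for Gng12 and -0.33 for Gng5 among the subunits, and 0.63 for Rgs10 and -0.48 for Rgs3 among the RGS genes. Depth and lanes go with genotype in these libraries and cannot be told apart from it.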

How the results depend on the processing

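Of 1532 alternative values for 91 results on named members, 1513 kept direction and call, 11 lost the call, 8 gained it and 0 reversed; 85 of the 91 results kept both throughout, but most were named for a small p or a large change. Over all called members, leaving out 1 library lost 1 of 4 calls for LPA in KO, 4 of 44 for LPS in KO, 8 of 25 for LPA in WT, 3 of 45 for LPS in WT, 7 of 31 for KO against WT with LPA, 4 of 18 for the difference in LPA effect and 2 of 43 for LPA against LPS in WT, and turned no direction. The number of members that LPA changed in KO was 8 by DESeq2 and 8 with the replicate block, against 4, and 3 to 6 with 1 library left out. For KO against WT with LPS it was 5 by DESeq2, 4 with library totals, 2 with the stricter filter (50 counts in 4 libraries) and 0 with the replicate block, against 1. Leaving out 1 library gave 1 to 7 there, 26 to 32 for KO against WT with LPA, 14 to 28 for the difference in LPA effect, 18 (without WT LPA 2) to 34 (without WT LPA 3) for LPA in WT, 42 to 46 for LPS in KO, 43 to 44 for LPS in WT, 41 to 44 for LPA against LPS in WT, and 0 throughout for untreated KO against WT and for the difference in LPS effect. The replicate block gave 33 for LPA in WT, 25 for the difference in LPA effect and 26 for KO against WT with LPA. Adjusted p over the alternatives ran from 0.0041 to 0.16 for Adcy7 with LPA in KO, from 0.0010 to 0.091 for Rgs16 with LPA in WT, and from 3.6e-06 to 0.10 for Arrb1 in KO against WT with LPS, where only the replicate block lost the call. For KO against WT that block ties same-numbered libraries of the 2 genotypes. Only 2 of 36 such pairs correlated above 0.1, so its results for KO against WT rest on numbers that do not pair. With library totals alone, the share of all called genes that were higher moved by over 10 percentage points: 40.3% against 52.7% for LPA in WT, 24.1% against 47.7% for LPS in KO, 23.3% against 48.3% for LPS in WT, 67.4% against 48.4% for KO against WT with LPA, 78.2% against 24.2% with LPS, 59.9% against 44.6% for the difference in LPA effect and 80.3% against 52.1% for LPA against LPS. The cause of these shifts was not tested. Depth limits members under 10 counts, and intervals cover the spread between libraries only.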
